A study of Homo sapiens with 48 samples.

Results

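Of the 10 genes described here, 7 are AP-1 subunit genes (FOS, FOSB, FOSL1, FOSL2, JUN, JUNB and JUND). The other 3 (EGR1, IER2 and IER3) are immediate-early genes outside AP-1. All were chosen by gene symbol from the 61817 entries of the count table and followed through all 16 groups of the study. RNA-Seq libraries were made from 22Rv1, a human castration-resistant prostate cancer cell line, and from 5 lines derived from it, with 3 biological replicates in each group and 48 libraries in all. Every line was treated for 72 h with 500 nM SNX631, an inhibitor of the Mediator kinases CDK8 and CDK19, or with 0.1% DMSO as the vehicle. The comparisons ask how Mediator kinase inhibition (MKI) and androgen-deprived medium change transcription in these cells.

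Rv1-WT denotes unmodified 22Rv1, and Rv1-Luc was obtained from it by transduction with a lentivirus carrying firefly luciferase. Both were grown in fetal bovine serum (FBS), which contains androgen, and in charcoal-stripped serum (CSS), from which steroids are removed. The other lines were grown in FBS only and carry a CRISPR/Cas9 knockout of both CDK8 and CDK19, with a single kinase put back by lentivirus. dKO-8 and dKO-19 re-express the wild-type kinase, dKO-8M and dKO-19M a kinase-inactive mutant of it. dKO-8 and dKO-8M were derived from knockout cells that already held an empty lentiviral vector (dKO-V), so they went through an additional transduction. Cells in CSS were passaged in CSS before the experiment and were seeded more densely than cells in FBS, so that medium and seeding density cannot be told apart. The sources used here do not say whether the knockout lines are clones or which promoter drives the re-expressed kinase.

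AP-1 is a family of dimeric transcription factors. A Jun protein pairs with a Fos protein, or with another Jun or ATF protein, through a leucine zipper, and the dimer binds short palindromic sites in promoters and enhancers. Many, but not all, of the genes belong to the immediate-early class, which growth factors and stress switch on within minutes. This runs mainly through the MAP kinases and through the serum response factor (SRF) and its ETS-domain partners. Transcripts of that class are short-lived. CDK8 and CDK19 are alternative kinase subunits of the Mediator complex, which links transcription factors to RNA polymerase II. EGR1 encodes a zinc-finger transcription factor of the same class, IER2 a nuclear immediate-early protein, and IER3 a small protein involved in cell survival.

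In the GENCODE v29 annotation of GRCh38, EGR1 (ENSG00000120738) lies on the plus strand at chr5:138465490-138469315 and has 2 exons. JUN (ENSG00000177606, chr1:58780788-58784327, minus strand), JUNB (ENSG00000171223, chr19:12791496-12793315, plus strand) and JUND (ENSG00000130522, chr19:18279760-18281622, minus strand) are each a single exon, and so is IER3 (ENSG00000137331, chr6:30743199-30744554, minus strand). FOS (ENSG00000170345) is at chr14:75278774-75282230 and FOSB (ENSG00000125740) at chr19:45467995-45475179, both on the plus strand. FOSL1 (ENSG00000175592) is at chr11:65892049-65900573 on the minus strand, FOSL2 (ENSG00000075426) at chr2:28392448-28417312 on the plus strand, and IER2 (ENSG00000160888) at chr19:13150415-13154908 on the plus strand. Genes on the opposite strand overlap FOSB (ERCC1), JUNB (HOOK2), IER2 (AC011446.2), IER3 (IER3-AS1) and FOSL2 (FLJ31356), and FOSL2 also overlaps AC104695.3 on its own strand. The libraries were made with a strand-marking kit, but the strand setting used in counting is not given in the sources used here, so reads of these overlapping genes may be mixed. JUND overlaps no gene in this annotation, yet its counts were fractional in 25% of libraries. How the fractions arose is not given in the sources used here.

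The RefSeq promoter table (GRCh38.p14) held 8 of the 10 genes, and the windows searched were the 250 bases before each RefSeq start, on both strands. The promoters of EGR1, JUND and FOS are shown since the 3 genes differ in elements of these windows. They were picked with their responses known, and a link between elements and responses was not tested. Capitals mark every match to a CArG box (the SRF element), to the cyclic AMP response element TGACGTCA (CRE) and to its core TGACG, which reads CGTCA when it lies on the other strand and is also part of every CRE. Each sequence runs 5′ to 3′ on the strand of its gene and stops before the gene begins in GENCODE v29.
EGR1, chr5:138465229-138465478, plus strand: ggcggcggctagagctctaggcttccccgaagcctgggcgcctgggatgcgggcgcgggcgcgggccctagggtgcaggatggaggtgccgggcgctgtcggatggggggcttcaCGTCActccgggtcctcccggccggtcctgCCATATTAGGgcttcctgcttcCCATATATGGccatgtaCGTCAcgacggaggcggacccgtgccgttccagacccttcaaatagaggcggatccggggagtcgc
JUND, chr19:18281623-18281872, minus strand: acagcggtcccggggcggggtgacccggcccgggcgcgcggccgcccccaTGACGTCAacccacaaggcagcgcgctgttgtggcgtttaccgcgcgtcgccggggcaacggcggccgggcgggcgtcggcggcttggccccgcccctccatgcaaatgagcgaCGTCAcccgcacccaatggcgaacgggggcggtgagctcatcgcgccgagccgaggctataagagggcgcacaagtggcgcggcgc
FOS, chr14:75278578-75278773, plus strand: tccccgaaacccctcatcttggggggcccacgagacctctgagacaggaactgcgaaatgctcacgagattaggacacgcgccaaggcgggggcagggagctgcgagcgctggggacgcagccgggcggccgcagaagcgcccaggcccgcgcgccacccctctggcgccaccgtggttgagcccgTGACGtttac
EGR1 was the only one of the 8 with CArG boxes in its window, of which it held 2. Of all 35116 promoters of this length in the table, 1.16% held at least one. JUND alone held a full CRE (1.65% of all promoters). The CRE core was found in 8 of 8 genes, against 21.2% of all promoters, which were not matched to the 8 for base composition. The JUN and FOSL2 windows lie wholly inside the gene as GENCODE v29 places it. So do 54 bases of the FOS window and 1 of the FOSB window. A TATA box (TATAAA) was present in FOS, FOSB and JUNB (10.7% of all promoters), and in FOS it lies past the end of the printed stretch. Neither the AP-1 site itself (TGACTCA or TGAGTCA, 4.20% of all promoters) nor the EGR site (GCGTGGGCG or GCGGGGGCG, 5.37%) was found in any of the 8 windows. These are matches of letters, and binding was not measured. Sequence further upstream was not searched, so a gene without a match here, such as FOS for the CArG box, may carry the element there.

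The deposited libraries held 13.2 M to 31.5 M counts each (median 21.4 M). Among the markers of luminal prostate cancer cells used for the check, CDH1 was measured at 250 to 399 CPM (counts-per-million, counts scaled to a common library total) and HOXB13 at 173 to 317 CPM, and KRT8, KRT18, EPCAM and FOLH1 were detected in every library too. CDK8 transcripts stood at 26.1 to 29.7 CPM in FBS vehicle libraries of the 4 lines without a CDK8 transgene, at 67.1 to 71.5 CPM in dKO-8 and at 118 to 125 CPM in dKO-8M. CDK19 transcripts were at 505 to 519 CPM in dKO-19, at 298 to 354 CPM in dKO-19M and at 101 to 150 CPM elsewhere. Transcripts of the disrupted genes were thus still counted, and the wild-type and mutant transgenes of each kinase were not at matched transcript levels. Protein differed from this: the study's Western blots showed less CDK8 in dKO-8 than in parental cells. CDK19 protein in dKO-19 and dKO-19M was far above the parental level. Replicate 1 of dKO-19M in FBS vehicle stood furthest from its replicates (chi-square per degree of freedom 17.7 and 17.1, median of all 48 replicate pairs 2.10), followed by replicates 1 and 2 of Rv1-Luc in FBS vehicle (9.71), and calls that rest on them, or passes of the looser limit lost without one of them, are given with and without it.

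Per kilobase of exon, JUND was by far the most abundant member, at 127 CPM per kb on average over the 48 libraries. IER2 followed at 28.3, JUNB at 17.1 and JUN at 15.01 CPM per kb. FOSL2 (3.06), EGR1 (2.05), IER3 (1.85), FOS (0.924) and FOSB (0.176 CPM per kb) were far lower. FOSL1 averaged 0.0354 CPM per kb. It had no counts in 16 libraries and at most 3 in 44 of 48, its highest count was 6, and it did not pass the filter on low counts, so 9 of the 10 members were tested. JUND was thus the most abundant Jun transcript per length and FOSL2 the most abundant Fos transcript.

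Between groups, EGR1 varied most. Its highest group mean was 23.4 times its lowest, compared with 15.4 times for IER3, 9.19 for FOS, 6.59 for JUN, 3.30 for FOSB, 2.65 for JUND, 2.55 for FOSL2, 1.70 for JUNB and 1.51 for IER2. Rv1-WT in CSS with vehicle held the highest mean of EGR1 (33.4 ± 2.76 CPM, SD, n = 3), JUN (164 ± 4.30 CPM), JUND (414 ± 9.18 CPM), JUNB (39.7 ± 3.18 CPM) and IER2 (110 ± 9.67 CPM). For both EGR1 and JUN the order began with Rv1-WT CSS vehicle, Rv1-WT CSS SNX631, Rv1-WT FBS vehicle and dKO-8 FBS vehicle, and the ranges of these groups were apart from each other. Further down, neighbours mostly overlapped: 9 of 15 neighbouring pairs for EGR1 and for JUN, 12 of 15 for JUND and IER3, 13 for JUNB and FOSL2, and 14 for FOS, FOSB and IER2. FOSL2 had another order, with dKO-8 vehicle highest (34.7 ± 0.454 CPM) and Rv1-Luc CSS vehicle lowest (13.6 ± 0.660 CPM).

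**Figure D1:**
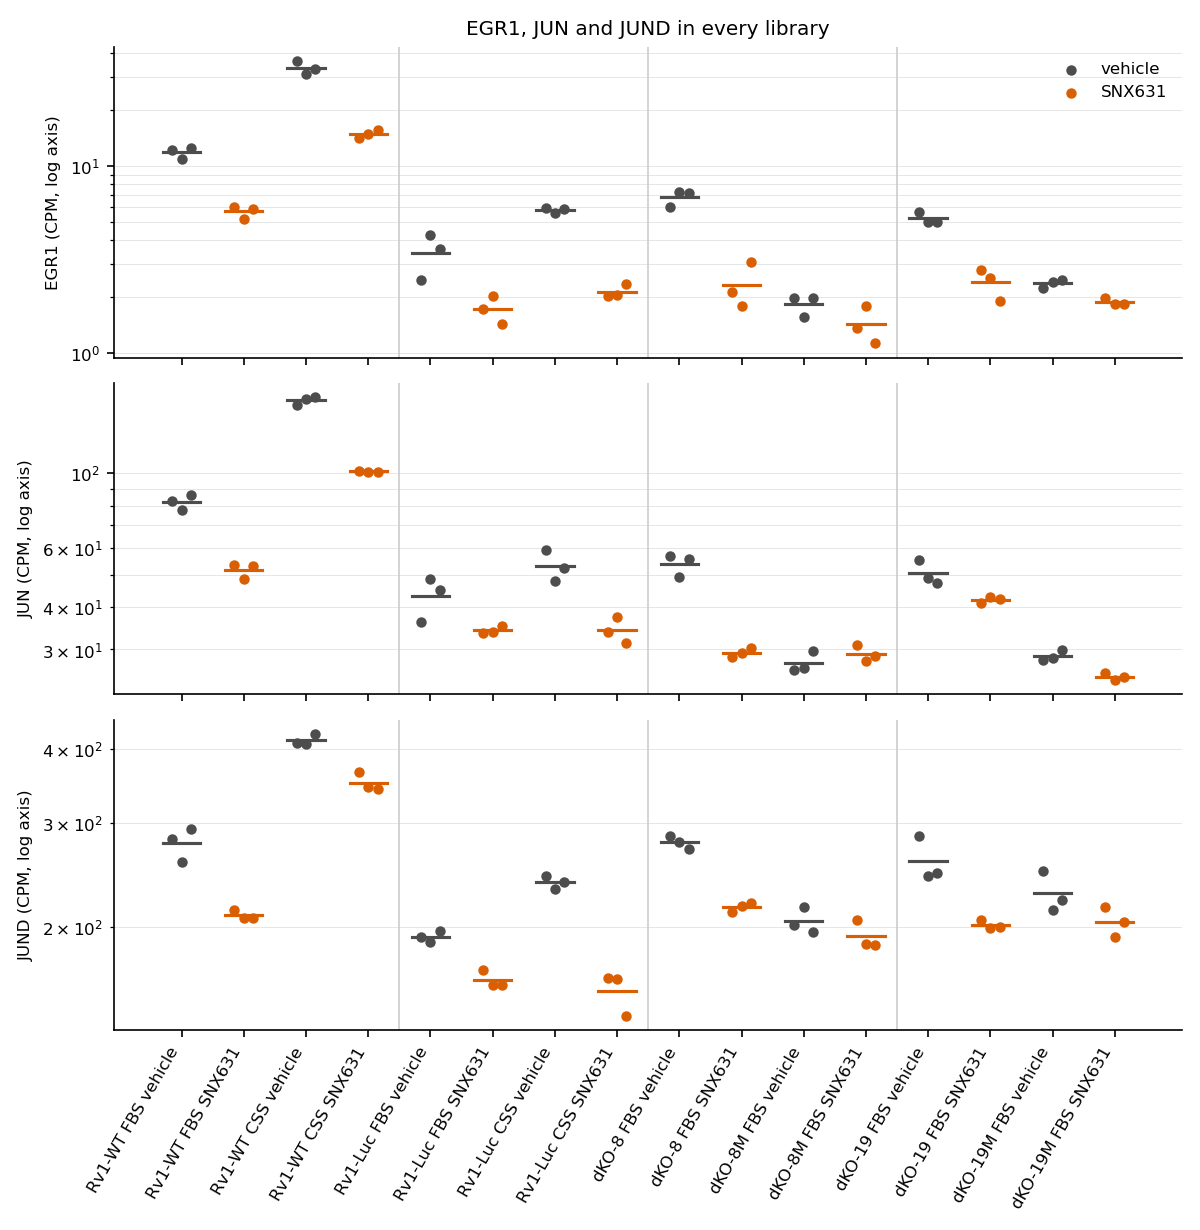
CPM of EGR1, JUN and JUND (log axes) in each of the 48 libraries, by group, with vehicle libraries in grey, SNX631 libraries in orange and a bar at each group mean. In every line with an active kinase the 3 orange points lie below the 3 grey ones for all 3 genes, and Rv1-WT in CSS is highest.

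EGR1 was lower with SNX631 in all 6 settings with an active kinase, and JUN in 4 of them by the same call. A gene was called changed at an adjusted p (Benjamini-Hochberg over 20009 genes, edgeR's quasi-likelihood test) under 0.01 with a fold change over 1.5, and a looser limit of adjusted p under 0.05 with no fold limit was also counted. Called lower were JUN and EGR1 in Rv1-WT in FBS (2 of 9 tested members, against 0.645% of all tested genes), JUN and EGR1 in Rv1-WT in CSS (1.25%), EGR1 in Rv1-Luc in FBS (1.34%), JUN, JUND and EGR1 in Rv1-Luc in CSS (1.61%), JUN and EGR1 in dKO-8 (1.05%) and EGR1 in dKO-19 (1.53%). IER3 in Rv1-WT in CSS was the single member called higher (2.97% of all genes). At the looser limit, 4 members were lower in Rv1-WT in FBS (6.79% of all genes), 4 in Rv1-WT in CSS (12.2%), 4 in Rv1-Luc in FBS (9.45%), 4 in Rv1-Luc in CSS (11.8%), 3 in dKO-8 (7.39%) and 4 in dKO-19 (11.3%). Higher at that limit were IER3 in Rv1-WT in each medium (7.68% for FBS, 14.2% for CSS), and FOS and FOSL2 in Rv1-Luc in FBS (10.9%).

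EGR1, a transcription factor induced by growth factor signaling, was at 12.1, 10.9 and 12.5 CPM in Rv1-WT in FBS with vehicle and at 6.03, 5.24 and 5.88 CPM with SNX631. It fell 2.06-fold (log2 change -1.05 ± 0.129, SE, adjusted p = 5.06e-09). In CSS, where its vehicle level was higher (36.4, 30.9 and 32.8 CPM), it was at 14.1, 14.8 and 15.5 CPM with SNX631, 2.26-fold lower. All treated libraries lay below all vehicle libraries in both media, and yet the treated level in CSS was above the vehicle level in FBS.

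In Rv1-Luc, EGR1 started lower. It measured 2.47, 4.28 and 3.59 CPM in FBS with vehicle against 1.72, 2.01 and 1.43 CPM with SNX631 (1.99-fold lower, adjusted p = 9.14e-06), and the log2 change of -0.99 became -1.19 without replicate 1 of the vehicle group and -0.80 without replicate 2, called in both cases. In CSS the values were 5.95, 5.64 and 5.87 CPM against 2.01, 2.04 and 2.33 CPM (2.73-fold lower, adjusted p = 4.11e-11). The groups did not overlap in either medium. In FBS the sum of 7 leukocyte and plasma cell markers was 10.1 to 21.9 CPM with vehicle and 2.51 to 9.28 CPM with SNX631 in these libraries, with JCHAIN, a plasma cell gene, called lower (log2 change -1.83, adjusted p = 0.000256), and its part in the FBS results was not tested. In CSS the sum was 3.66 to 5.28 CPM with vehicle and 5.08 to 16.6 CPM with SNX631. The part of these markers in the CSS results was not tested either. dKO-8 showed the steepest drop, from 6.05, 7.27 and 7.18 CPM to 2.11, 1.78 and 3.06 CPM (log2 change -1.57 ± 0.147, adjusted p = 1.16e-12). dKO-19 went from 5.70, 5.03 and 5.02 CPM to 2.78, 2.53 and 1.90 CPM (log2 change -1.12 ± 0.157). Over the 6 settings the log2 change ranged from -1.57 to -0.99, and in 6 of 6 the treated and vehicle libraries were apart.

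JUN, the AP-1 subunit that pairs with every Fos protein, was the second member lowered repeatedly. It stood at 82.8, 77.9 and 86.2 CPM in Rv1-WT in FBS with vehicle and at 53.3, 48.5 and 53.0 CPM with SNX631 (log2 change -0.67 ± 0.0704, adjusted p = 8.87e-11). In CSS it went from 159, 166 and 168 CPM to 101 CPM in each of the 3 treated libraries (log2 change -0.70 ± 0.0629). Groups were far apart in both media, with a fall of 1.59-fold in FBS and 1.62-fold in CSS. In dKO-8 JUN fell 1.84-fold, from 56.8, 49.1 and 55.8 CPM to 28.6, 29.3 and 30.3 CPM (adjusted p = 4.35e-14).

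Smaller changes of JUN were seen in the other active settings. Rv1-Luc in CSS gave 59.1, 47.9 and 52.3 CPM against 33.8, 37.5 and 31.4 CPM, a called fall of 1.56-fold that sat close to the fold limit. Without replicate 1 of its vehicle group (log2 change -0.55) or replicate 3 of its SNX631 group (-0.58) the fall was under 1.5-fold. Rv1-Luc in FBS (36.3, 48.4 and 45.1 against 33.5, 33.9 and 35.3 CPM, log2 change -0.34 ± 0.0717, adjusted p = 0.000301) and dKO-19 (55.4, 48.8 and 47.3 against 41.3, 42.8 and 42.3 CPM, -0.26 ± 0.0711, adjusted p = 0.00508) passed only the looser limit. The treated libraries were nonetheless below the vehicle libraries in 6 of 6 settings.

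JUND, the most abundant Jun gene here and one whose product restrains growth in many cells, moved the same way by less. Its vehicle values in Rv1-WT in FBS were 282, 257 and 292 CPM and its SNX631 values 213, 207 and 207 CPM (log2 change -0.41 ± 0.0537, adjusted p = 4.85e-08). The called fall was in Rv1-Luc in CSS, from 244, 232 and 238 CPM to 164, 163 and 141 CPM (log2 change -0.61 ± 0.0534). It rested on replicate 3 of the SNX631 group, since the log2 change was -0.55 without it. As JUN was lost too, 1 member and not 3 was then called lower there. In all 6 active settings JUND passed the looser limit, with log2 changes between -0.61 and -0.24 and no overlap between groups.

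JUNB, the third Jun gene, passed neither limit with SNX631 in any setting. Its log2 changes in the active settings lay between -0.13 and 0.18. In Rv1-WT in FBS it was at 31.5, 28.4 and 33.0 CPM with vehicle and at 31.4, 31.8 and 26.6 CPM with SNX631, with a 95% confidence interval of -0.22 to 0.11 for the log2 change.

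None of the Fos-family genes was called in either direction with SNX631. FOS was higher at the looser limit in Rv1-Luc in FBS only (2.63, 3.02 and 2.36 CPM with vehicle, 3.87, 3.32 and 4.38 CPM with SNX631, log2 change 0.52 ± 0.187, adjusted p = 0.0373), and did not pass it without replicate 1 of the vehicle group (adjusted p = 0.0866). There FOSL2 was higher too, at 15.5, 14.9 and 12.4 CPM against 17.4, 16.4 and 19.6 CPM (log2 change 0.31 ± 0.0850, adjusted p = 0.00441). In both cases the treated libraries lay above the vehicle libraries. FOSB counts were low (8 to 38 reads a library) and its intervals wide, for example 0.10 to 1.31 on the log2 scale in Rv1-Luc in CSS (adjusted p = 0.0829). FOSL1, at no more than 6 reads in a library, cannot be compared at this depth.

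IER2 and IER3 differed from each other. IER2, the second most abundant member per kilobase, had log2 changes between -0.42 and -0.13 with SNX631 in the active settings, and passed the looser limit in 5 of 6 of them. The clearest case was dKO-19, where it went from 98.2, 97.2 and 100 CPM to 75.2, 73.6 and 72.6 CPM (adjusted p = 6.04e-09). IER3 was higher in Rv1-WT. In CSS it rose 1.85-fold, from 5.61, 4.21 and 6.22 CPM to 12.0, 8.16 and 9.73 CPM (log2 change 0.88 ± 0.153, adjusted p = 6.70e-06), with every treated library above every vehicle library. In FBS it measured 2.41, 2.61 and 2.34 CPM against 4.40, 2.66 and 4.10 CPM (log2 change 0.62 ± 0.207, adjusted p = 0.0313), and without replicate 2 of the SNX631 group the log2 change was 0.79 and was called. In Rv1-Luc, dKO-8 and dKO-19 its log2 change was between -0.20 and 0.37 and passed neither limit.

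Among 6 fibroblast markers, 5 were tested, and 2 of them, the collagen gene COL3A1 and the matrix gene LUM, were called higher with SNX631 in each Rv1-WT and Rv1-Luc setting. Over the 48 libraries COL1A1 was at 2.54 to 10.8 CPM, LUM at 0 to 15.7, COL3A1 at 0 to 1.54, PDGFRB at 0.0880 to 1.73, DCN at 0 to 0.784 and COL1A2 at 0 to 0.362 CPM. Their summed level went from 15.7 to 16.7 CPM with vehicle to 22.0 to 22.8 CPM with SNX631 in Rv1-WT in FBS, and from 9.60 to 11.4 CPM to 12.7 to 14.6 CPM in Rv1-Luc in FBS. For Rv1-WT in CSS the sum was 15.8 to 20.8 CPM with vehicle and 21.5 to 26.7 CPM with SNX631. For Rv1-Luc in CSS it was 10.1 to 12.4 CPM with vehicle and 13.7 to 16.1 CPM with SNX631. In dKO-8 the sum was 5.49 to 7.06 CPM with vehicle and 5.99 to 7.76 CPM with SNX631. In dKO-19 COL3A1 was called higher, with a mean of 1.06 CPM against 0.0948 CPM with vehicle (at most 3 counts in each vehicle library), and the sum was 4.29 to 5.59 CPM with vehicle and 5.18 to 5.46 CPM with SNX631. The part of these markers in the results was not tested.

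**Figure D2:**
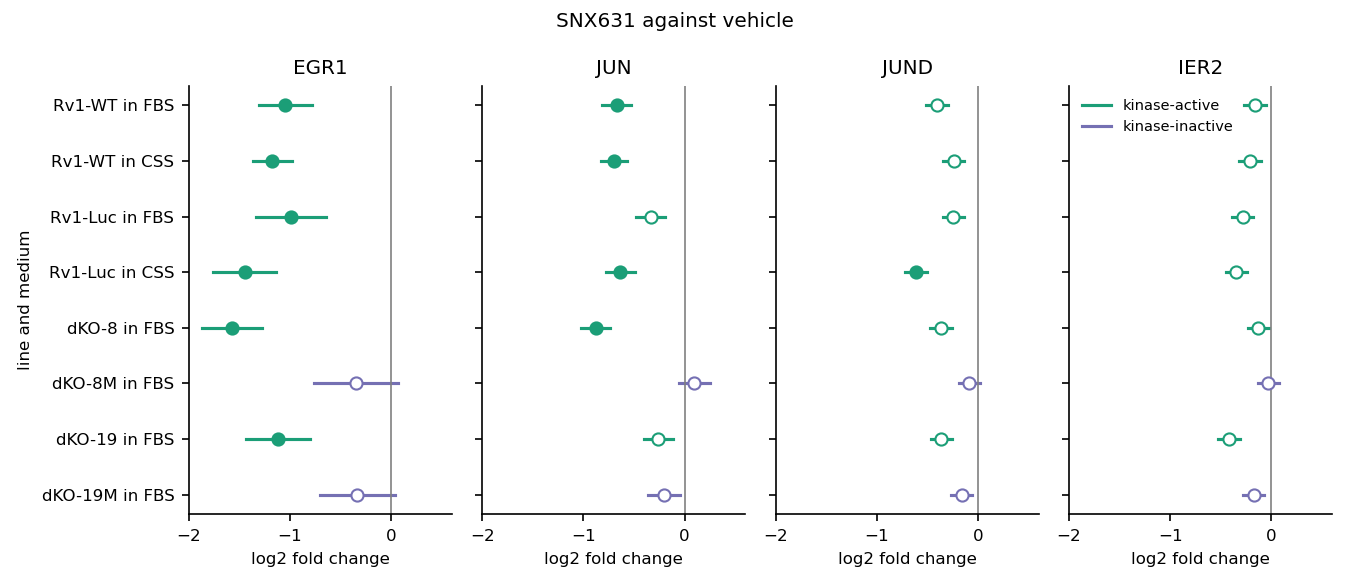
Log2 fold change of SNX631 against vehicle for EGR1, JUN, JUND and IER2 in each line and medium, with 95% confidence intervals. Filled circles were called (adjusted p under 0.01 and fold over 1.5), open circles were not. Green marks lines with an active kinase and purple those with a kinase-inactive mutant, and EGR1 is filled in all 6 green settings and in neither purple one.

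No member was called with SNX631 in either line that held only a kinase-inactive mutant. In dKO-8M the count was 0 of 9 (0.0150% of all genes called in either direction) and in dKO-19M 0 of 9 (0.0900%), by edgeR and likewise by DESeq2. None passed the looser limit (0.485% and 2.41% of all genes). At an unadjusted p under 0.05 there was 1 member in dKO-8M (9.55% of all genes) and there were 4 in dKO-19M (14.7%). Of the 9 log2 changes, 6 were negative in dKO-8M and 9 in dKO-19M. EGR1 was at 1.96, 1.56 and 1.98 CPM with vehicle and 1.36, 1.79 and 1.13 CPM with SNX631 in dKO-8M (log2 change -0.35, 95% confidence interval -0.76 to 0.07). In dKO-19M it was at 2.23, 2.41 and 2.46 CPM against 1.97, 1.83 and 1.83 CPM (-0.34, -0.71 to 0.04). JUN measured 26.1, 26.5 and 29.7 CPM against 31.01, 27.8 and 28.8 CPM in dKO-8M (0.10, -0.06 to 0.25), and 28.0, 28.3 and 30.0 CPM against 25.6, 24.4 and 24.8 CPM in dKO-19M (-0.21, -0.37 to -0.05). Treated and vehicle libraries overlapped for both genes in dKO-8M and were apart for both in dKO-19M. Leaving out replicate 1 of the dKO-19M vehicle group gave 0 called members again.

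The difference between the active and the inactive line was itself tested. For CDK8, the SNX631 effect in dKO-8 minus that in dKO-8M was -0.98 ± 0.106 on the log2 scale for JUN (adjusted p = 2.31e-09) and -1.23 ± 0.261 for EGR1 (adjusted p = 0.000954), the 2 members called lower (0.555% of all genes). EGR1 was not called without replicate 2 of dKO-8M with SNX631 (-1.02, adjusted p = 0.0294), which left 1 member. JUND passed the looser limit (-0.28 ± 0.0746, adjusted p = 0.0129), for 3 of 9 members lower at that limit (3.61% of all genes). For CDK19, 0 of 9 members were called (2.07% of all genes in either direction, 3 members at an unadjusted p under 0.05 against 21.8% of all genes, and 0 by DESeq2). EGR1 (-0.78 ± 0.248, adjusted p = 0.0306) and IER2 (-0.24 ± 0.0743, adjusted p = 0.0261) were lower at the looser limit (5.94% of all genes), EGR1 not without replicate 1 of dKO-19M with vehicle (-0.74, adjusted p = 0.0563). COL3A1 was called higher in the same test (adjusted p = 0.00394), and its part was not tested. JUN had a difference of -0.05 with a 95% confidence interval of -0.27 to 0.16.

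Between the active lines, JUN responded less in dKO-19 than in dKO-8 (difference of log2 changes 0.62 ± 0.102, adjusted p = 2.52e-05, against 0.580% of all genes called higher). The difference was under the fold limit without replicate 1 of dKO-8 with vehicle (0.58) or replicate 3 of dKO-19 with vehicle (0.57), and the count of called members was then 0. At the looser limit JUN was the single member higher (2.03% of all genes), and IER2 went the other way (-0.29 ± 0.0742, adjusted p = 0.0116, 2.74%). For EGR1 the difference was 0.46 (95% confidence interval 0.01 to 0.90, adjusted p = 0.285). dKO-8 and dKO-19 also differ in kinase protein level and in transduction history, as given above. The part of the kinase itself cannot be told apart from these.

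The kinase-inactive lines were lower in EGR1 and JUN even without the inhibitor. In dKO-8M against dKO-8 under vehicle, JUN, EGR1 and IER3 were called lower (3 of 9 members, against 4.07% of all genes), and 7 were lower at the looser limit (16.3%). In dKO-19M against dKO-19, FOSL2, JUN, JUNB and EGR1 were called lower (4 of 9, against 3.87%), with 6 at the looser limit (17.7%). These contrasts share their vehicle libraries with the SNX631 contrasts of the same lines.

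EGR1 was at 6.05, 7.27 and 7.18 CPM in dKO-8 and at 1.96, 1.56 and 1.98 CPM in dKO-8M, 3.72-fold lower (adjusted p = 1.05e-15). Between dKO-19 (5.70, 5.03 and 5.02 CPM) and dKO-19M (2.23, 2.41 and 2.46 CPM) it was 2.22-fold lower (adjusted p = 6.39e-09). JUN was 1.98-fold lower in dKO-8M (26.1, 26.5 and 29.7 against 56.8, 49.1 and 55.8 CPM) and 1.76-fold lower in dKO-19M (28.0, 28.3 and 30.0 against 55.4, 48.8 and 47.3 CPM). No library of an inactive line reached the range of its active counterpart for either gene. With SNX631, JUN in dKO-8 came down to 29.4 ± 0.886 CPM. In dKO-8M it was at 29.2 ± 1.67 CPM with SNX631 and 27.4 ± 1.94 CPM with vehicle. EGR1 in dKO-8 came down to 2.32 ± 0.665 CPM. In dKO-8M it was at 1.42 ± 0.335 CPM with SNX631 and 1.83 ± 0.234 CPM with vehicle. EGR1 in dKO-19 came down to 2.40 ± 0.454 CPM. In dKO-19M it was at 1.87 ± 0.0824 CPM with SNX631 and 2.36 ± 0.121 CPM with vehicle. JUN in dKO-19 with SNX631 stayed at 42.1 ± 0.767 CPM. That was above dKO-19M with SNX631 (24.9 ± 0.588 CPM) and with vehicle (28.8 ± 1.08 CPM).

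FOSL2, the leading Fos gene, was at 33.6, 30.9 and 31.5 CPM in dKO-19 and at 17.6, 21.5 and 20.6 CPM in dKO-19M (log2 change -0.69 ± 0.0763, adjusted p = 6.51e-11), with no overlap. In dKO-8M it was lower at the looser limit (-0.47 ± 0.0744). JUNB in dKO-19M, at 24.0, 25.3 and 22.1 CPM against 36.9, 34.1 and 38.0 CPM, had a log2 change of -0.61 ± 0.0746, close to the fold limit. It was below that limit without replicate 3 of dKO-19 (-0.58) or of dKO-19M (-0.56) with vehicle. Without the outlying replicate 1 of dKO-19M, 4 members were still called, with log2 changes of -0.61 for FOSL2, -0.80 for JUN, -0.63 for JUNB and -1.12 for EGR1. IER3 in dKO-8M (0.719, 0.465 and 0.855 against 1.49, 1.41 and 1.02 CPM, log2 change -0.93 ± 0.286, adjusted p = 0.00899) was called narrowly. It was lost without replicate 1 (adjusted p = 0.0536) or 2 (0.0354) of dKO-8 and without replicate 1 (0.0237) or 2 (0.0752) of dKO-8M. The wild-type and mutant transgenes also differed in transcript level, as given above, and the part of that difference was not tested.

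**Figure D3:**
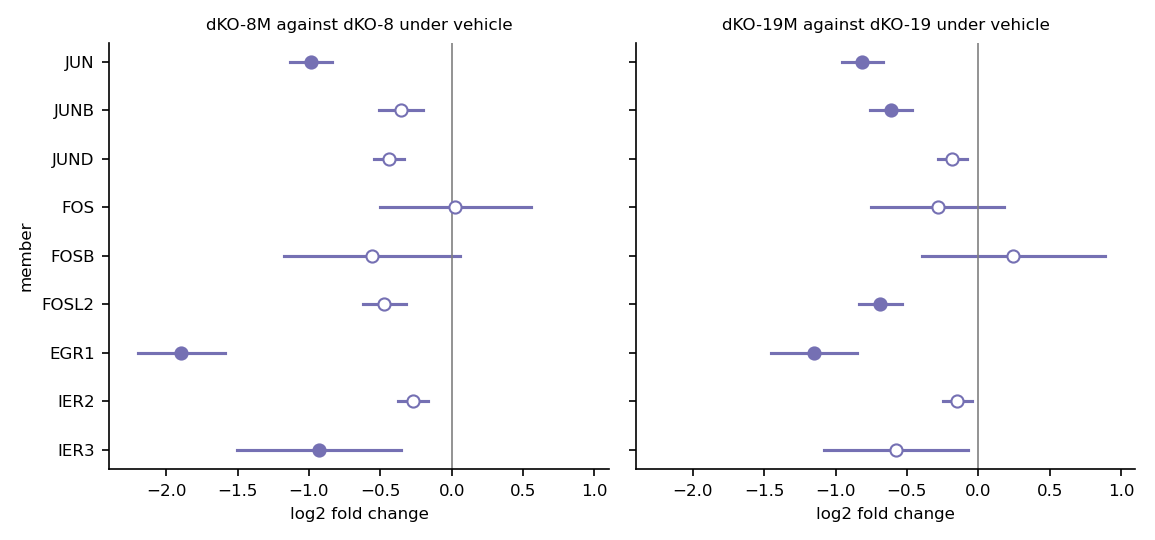
Log2 fold change, with 95% confidence intervals, of each tested member in dKO-8M against dKO-8 (left) and in dKO-19M against dKO-19 (right), both with vehicle in FBS. Filled circles were called. EGR1 lies furthest to the left in both panels, at -1.89 and -1.15, and FOS and FOSB have intervals that include 0.

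In Rv1-WT, members of every branch of the family were higher in CSS. With vehicle, FOS, JUN, EGR1 and IER3 were called higher in CSS than in FBS (4 of 9, against 6.09% of all genes), and 8 of 9 were higher at the looser limit (21.8%). With SNX631, JUND joined them (5 of 9, against 4.86%), again with 8 of 9 at the looser limit (19.5%). EGR1 rose 2.81-fold with vehicle, from 12.1, 10.9 and 12.5 CPM to 36.4, 30.9 and 32.8 CPM (log2 change 1.49 ± 0.102, adjusted p = 5.65e-19), and 2.57-fold with SNX631. JUN rose 1.99-fold, from 82.8, 77.9 and 86.2 CPM to 159, 166 and 168 CPM, and 1.96-fold with SNX631. The highest FBS library was below the lowest CSS library for each of these genes.

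FOS, the founding Fos gene, followed the same course. It was at 4.12, 3.75 and 3.37 CPM in FBS and at 7.34, 7.44 and 8.34 CPM in CSS with vehicle (2.05-fold higher, adjusted p = 2.13e-06). With SNX631 the values were 4.28, 3.84 and 3.02 CPM against 11.3, 7.94 and 8.48 CPM (2.49-fold). IER3 went from 2.41, 2.61 and 2.34 CPM to 5.61, 4.21 and 6.22 CPM with vehicle (2.19-fold, adjusted p = 1.61e-06) and from 4.40, 2.66 and 4.10 CPM to 12.0, 8.16 and 9.73 CPM with SNX631 (2.63-fold). Both had their highest group mean in Rv1-WT in CSS with SNX631, at 9.23 ± 1.79 and 9.97 ± 1.95 CPM. For IER3 that group was apart from its CSS vehicle group, whereas for FOS the ranges of these groups overlapped (log2 change 0.25, adjusted p = 0.237).

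JUND rose from 282, 257 and 292 CPM to 409, 408 and 424 CPM with vehicle, 1.49-fold and just under the fold limit (adjusted p = 8.18e-14). It was called without replicate 1 (log2 change 0.59) or 3 (0.62) of the FBS group or without replicate 2 of the CSS group (0.59). FOSL2 (log2 change 0.30), JUNB (0.36) and IER2 (0.30) rose at the looser limit, and FOSB did not pass it (-0.29, 95% confidence interval -0.85 to 0.27). In the same comparison 6 of 8 cytosolic heat shock genes were called lower with vehicle (median log2 change -0.97, all genes 0.01) and 7 of 8 with SNX631, with the summed level of the list at 4261 to 4494 CPM in FBS and 2285 to 2365 CPM in CSS with vehicle. In Rv1-Luc none of the 8 was called, with sums of 5618 to 6128 CPM in FBS and 5431 to 5475 CPM in CSS. The part of that change, or of the denser seeding, in the results was not tested.

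Fewer members passed in Rv1-Luc. With vehicle EGR1 was the single member called higher in CSS (0.680% of all genes), at 5.95, 5.64 and 5.87 CPM against 2.47, 4.28 and 3.59 CPM in FBS (1.70-fold, adjusted p = 4.49e-05). Without replicate 1 of the FBS group, the lowest library and one of the pair that stood apart, the log2 change was 0.56 and not called, which left 0 members, and without replicate 2 it was 0.96. The summed leukocyte and plasma cell markers were at 10.1 to 21.9 CPM in FBS and 3.66 to 5.28 CPM in CSS in the same comparison, with JCHAIN called lower (log2 change -2.45, adjusted p = 2.02e-05), and their part was not tested. JUN, JUNB, JUND and IER2 were also higher at the looser limit (5 of 9, against 7.33% of all genes), by 0.28 to 0.31 on the log2 scale, JUN not without the same library (0.19, adjusted p = 0.0602). With SNX631 no member was called (1.51% of all genes in either direction, 3 members at an unadjusted p under 0.05 against 25.2% of all genes, and 0 by DESeq2), and IER2 alone passed the looser limit (0.22 ± 0.0527, 6.08% of all genes higher). FOS was at 2.63, 3.02 and 2.36 CPM in FBS and 2.92, 1.85 and 3.14 CPM in CSS with vehicle, and its log2 change had a 95% confidence interval of -0.41 to 0.39.

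**Figure D4:**
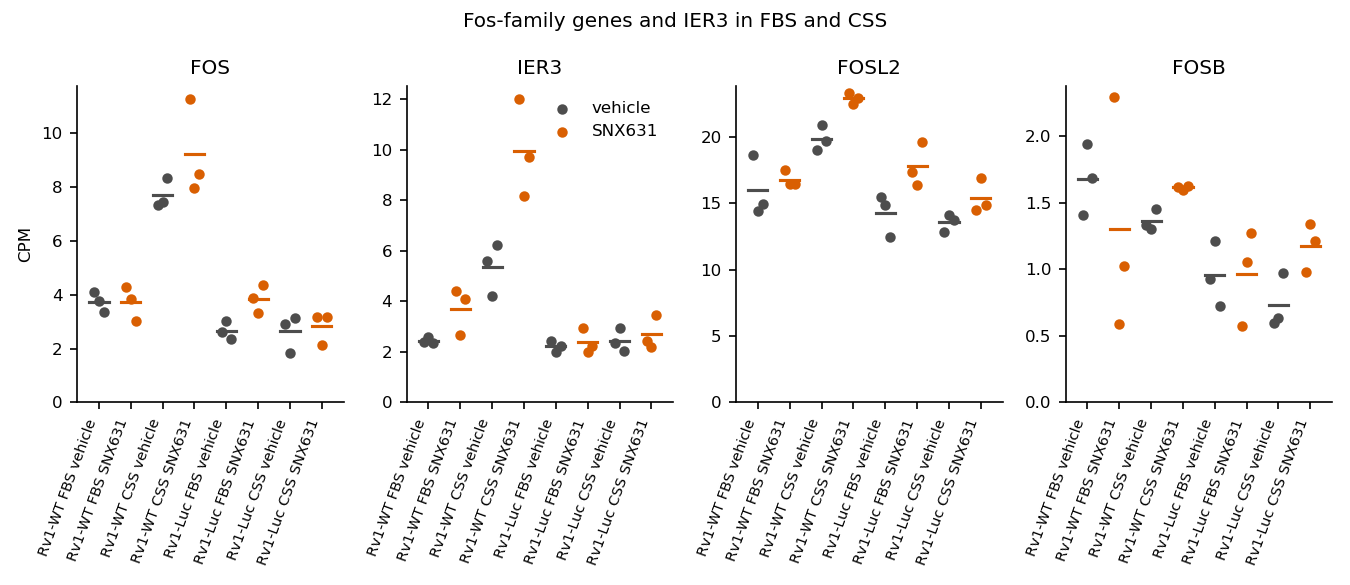
CPM of FOS, IER3, FOSL2 and FOSB in each library of Rv1-WT and Rv1-Luc, by medium, with vehicle (grey) or SNX631 (orange) and a bar at each group mean. FOS and IER3 are higher in CSS than in FBS in Rv1-WT, whereas in Rv1-Luc the ranges of the media overlap for IER3 and, with vehicle, for FOS.

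The difference between the lines in their response to CSS was tested with vehicle. FOS (difference of log2 changes, Rv1-Luc minus Rv1-WT, -1.05 ± 0.270, adjusted p = 0.00146), JUN (-0.69 ± 0.0946, adjusted p = 3.30e-08), EGR1 (-0.73 ± 0.174, adjusted p = 0.000622) and IER3 (-1.0 ± 0.278, adjusted p = 0.00328) were called lower, 4 of 9 members against 4.04% of all genes. With JUND (-0.27) and FOSL2 (-0.38), 6 of 9 were lower at the looser limit (15.4% of all genes), FOSL2 not without replicate 1 of Rv1-Luc FBS vehicle (-0.31, adjusted p = 0.0652). For JUNB (-0.05, 95% confidence interval -0.26 to 0.17) and IER2 (-0.02, -0.17 to 0.13) no difference was detectable. Without replicate 1 or 2 of Rv1-Luc FBS vehicle the difference was -1.06 or -0.95 for FOS and -0.81 or -0.60 for JUN, all called. Single libraries decided some calls. FOS was lost without replicate 2 of Rv1-Luc CSS vehicle (-0.86) and EGR1 without replicate 2 of Rv1-Luc FBS vehicle (-0.54). IER3 was lost without replicate 3 of Rv1-WT CSS vehicle (-0.87), replicate 1 of Rv1-Luc FBS vehicle (-0.93) or replicate 3 of Rv1-Luc CSS vehicle (-0.89).

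The response to SNX631 was compared between media and lines as well. In Rv1-WT, no member differed between CSS and FBS by the call (0.295% of all genes in either direction, 1 member at an unadjusted p under 0.05 against 14.6% of all genes, and 0 by DESeq2). For EGR1 the difference was -0.13 (95% confidence interval -0.46 to 0.20). In Rv1-Luc there was again 0 called (0.0800% of all genes, 2 members at an unadjusted p under 0.05 against 9.33%, and 0 by DESeq2), but JUND fell more in CSS than in FBS at the looser limit (-0.37 ± 0.0754, adjusted p = 0.00625, against 0.330% of all genes lower). JCHAIN was called in the same test in the other direction (3.26, adjusted p = 0.00128), and its part was not tested. Between the lines in FBS (Rv1-Luc minus Rv1-WT) there was 0 called (0.175% of all genes, 2 members at an unadjusted p under 0.05 against 11.9%, and 0 by DESeq2), with a difference of 0.33 for JUN (95% confidence interval 0.13 to 0.54, adjusted p = 0.0796, or 0.0123 without replicate 2 of Rv1-Luc FBS vehicle) and 0.06 for EGR1 (-0.40 to 0.51).

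The lines themselves differed in FBS with vehicle. JUN and EGR1 were called lower in Rv1-Luc (2 of 9, against 9.16% of all genes), and FOS, FOSB and JUND were lower at the looser limit, for 5 of 9 in all (28.4%). FOS did not pass it without replicate 1 of Rv1-Luc (adjusted p = 0.0791). This comparison was the one with the most changed genes. EGR1 was at 2.47, 4.28 and 3.59 CPM in Rv1-Luc against 12.1, 10.9 and 12.5 CPM in Rv1-WT, 3.45-fold lower (log2 change -1.79 ± 0.131, adjusted p = 9.32e-18). JUN was 1.91-fold lower (36.3, 48.4 and 45.1 against 82.8, 77.9 and 86.2 CPM). Without replicate 1 or 2 of Rv1-Luc the log2 change was -1.59 or -1.98 for EGR1 and -0.82 or -1.02 for JUN, all called. FOSB had a log2 change of -0.79 ± 0.285 (adjusted p = 0.0162) and was called without replicate 2 of Rv1-Luc (-1.0). JUNB (-0.07) and IER2 (-0.01) passed neither limit. In the same comparison 4 of 6 tested leukocyte and plasma cell markers were called higher in Rv1-Luc, with the sum of the 7-gene list at 10.1 to 21.9 CPM against 0.870 to 1.62 CPM. Among the called were the plasma cell genes JCHAIN (mean 2.66 CPM), IGKC (4.58 CPM) and IGHG1 (6.19 CPM), each with a mean of 0 in Rv1-WT, while the T cell gene CD3E was at most 0.0981 CPM in any library. LUM was called lower in Rv1-Luc (-1.34). The part of these markers in the difference was not tested.

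**Figure D5:**
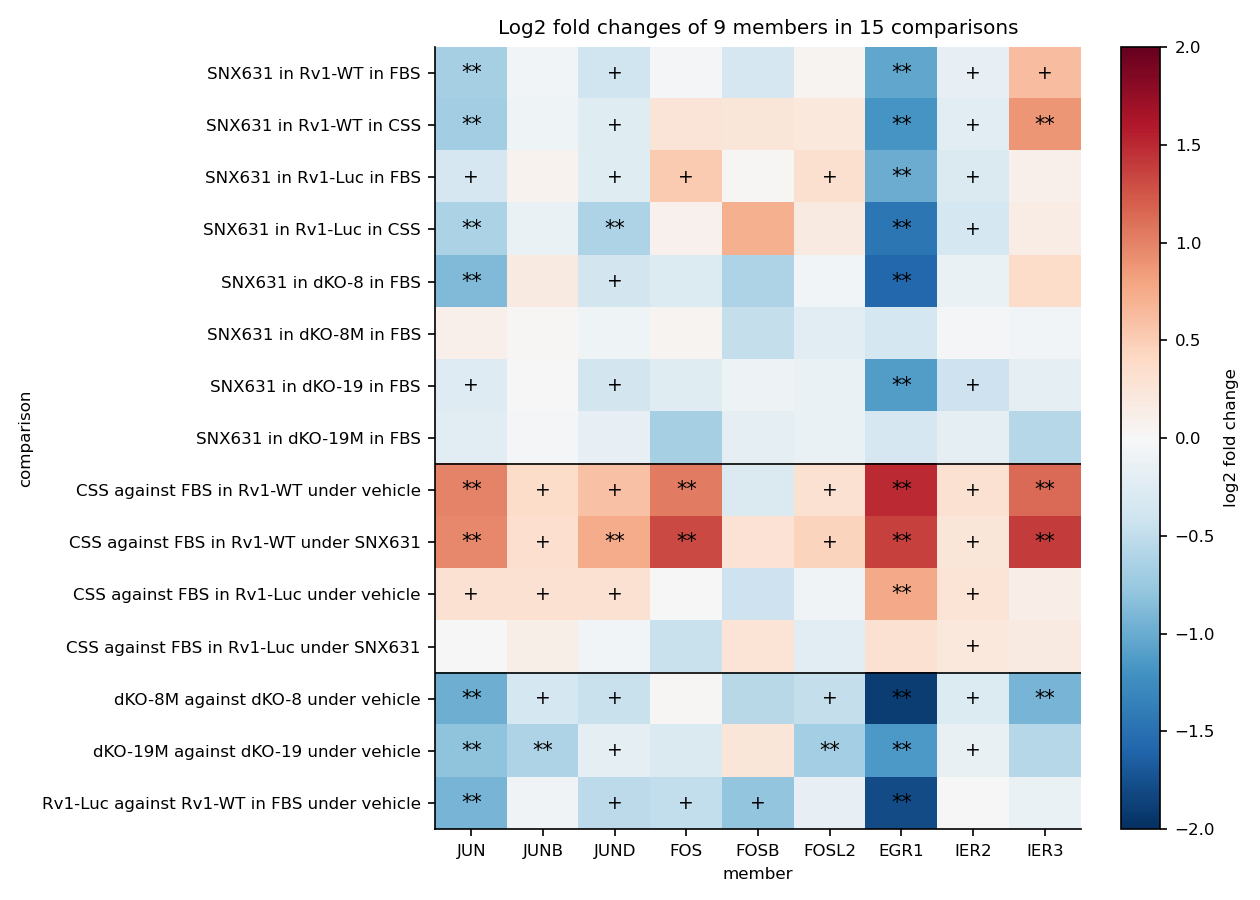
Log2 fold changes of the 9 tested members (columns) in the 15 comparisons of 2 groups (rows), from blue (lower) through white to red (higher), with ** for called changes and + for those that passed an adjusted p of 0.05 without the fold limit. The EGR1 and JUN columns carry most of the ** marks, JUND and IER2 carry mainly + marks, and the rows of dKO-8M and dKO-19M with SNX631 carry no mark.

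Other genes of the pathway, from lists chosen like the members with earlier results of these data known, were counted by the same call in either direction. The all-gene shares with SNX631 were 2.39% in Rv1-WT in FBS, 4.23% in Rv1-WT in CSS, 3.67% in Rv1-Luc in FBS, 4.06% in Rv1-Luc in CSS, 1.71% in dKO-8 and 3.41% in dKO-19. They were 10.9% for CSS in Rv1-WT with vehicle and 7.83% with SNX631, 1.49% for CSS in Rv1-Luc with vehicle, 7.03% for dKO-8M against dKO-8, 7.60% for dKO-19M against dKO-19 and 17.8% for Rv1-Luc against Rv1-WT. All-gene median log2 changes lay between -0.02 and 0.01.

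Of 27 other immediate-early genes 26 were tested, and their calls went in both directions. In Rv1-WT with SNX631, 1 was called higher in FBS and 6 in CSS, and none lower (medians 0.00 and 0.20). TRIB1, a pseudokinase gene, rose from 45.6 to 92.3 CPM in FBS (log2 change 1.02) and from 74.8 to 169 CPM in CSS (1.18), and MYC from 210 to 361 CPM in CSS (0.78). EGR3, a relative of EGR1, was called lower in Rv1-Luc in CSS (-1.65), in dKO-8 (-1.97, from 2.92 to 0.742 CPM) and in dKO-19 (-1.04). IER5L was called higher in Rv1-Luc in FBS (0.90) and CSS (0.81) and in dKO-19 (0.65). In the kinase-inactive lines, 0 of 26 were called with SNX631.

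With CSS in Rv1-WT 8 of the 26 were called higher and none lower (median 0.27), among them EGR3 (1.75) and the matrix protein gene CCN2 (1.67), and in Rv1-Luc none was called (median 0.07). EGR3 was also lower in dKO-8M against dKO-8 (-2.73, 4 of 26 called, none of them higher) and in dKO-19M against dKO-19 (-1.56, with 1 of 26 called lower and 2 higher).

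Feedback genes of the ERK pathway, which ERK signaling induces, were counted next. Of 12 tested, those called with SNX631 were all higher, 1 in Rv1-WT in FBS, 2 in Rv1-WT in CSS, 3 in Rv1-Luc in FBS, 1 in dKO-8 and 3 in dKO-19, and none in Rv1-Luc in CSS or in the kinase-inactive lines. The phosphatase gene DUSP6 rose in Rv1-WT in FBS (from 10.1 to 15.8 CPM, log2 change 0.65), by 0.63 in Rv1-WT in CSS, by 0.66 in FBS-grown Rv1-Luc and by 0.77 in dKO-19. With CSS in Rv1-WT 7 of 12 were called higher (median 0.69), led by ETV5 (1.49), DUSP6 (1.17) and DUSP4 (1.12). In Rv1-Luc 4 were called higher and 1 lower (median 0.24). Among those called in dKO-19M against dKO-19, DUSP6 (1.27) and ETV5 (1.08) were higher and DUSP4 was lower (-0.93).

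Of the 10 MAP kinase genes upstream of AP-1 none was called with SNX631 in any of the 8 settings, nor with CSS in Rv1-WT. MAPK10, the neuronal JNK, was called in 5 comparisons of medium or line, for example from 2.26 CPM in dKO-8 to 5.29 CPM in dKO-8M. Among SRF and its 5 partners, ELK3 was called lower with SNX631 in Rv1-WT in CSS (-0.67) and higher with CSS in Rv1-WT (0.77). ELK3 was also called lower in dKO-19M against dKO-19 (-1.30). Of 12 partner bZIP genes 10 were tested, and JDP2, whose product dimerizes with Jun proteins, was called lower with SNX631 in Rv1-WT in CSS (-0.71), Rv1-Luc in CSS (-0.73) and dKO-8 (-1.04) and higher with CSS in Rv1-WT (1.61).

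Of 18 known AP-1 target genes listed, 10 were tested. With SNX631 AREG was called lower in Rv1-WT in CSS (-0.96), while CD44 was called higher in Rv1-Luc in FBS (0.83) and CSS (0.71) and in dKO-19 (0.99), where VIM was called higher too (0.92). With CSS in Rv1-WT 3 were called higher and 1 lower, and AREG, an EGF-receptor ligand, went from 0.942 to 11.4 CPM (3.58). In dKO-19M against dKO-19, HBEGF (from 12.1 to 2.27 CPM, -2.42) and TIMP1 (from 8.96 to 0.972 CPM, -3.20) were called lower and CD44 higher (1.34).

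Over the 16 group means each tested member was compared with all tested genes of at least 5 CPM on average. JUN and EGR1 tracked each other closely. Each was the closest gene to the other (Pearson r = 0.972 of group mean log2 CPM with a pseudocount of 2, a description only, since groups share lines and media), followed for both by GFPT1, which encodes the first enzyme of the hexosamine pathway (0.961 with JUN and 0.959 with EGR1). The gene closest to JUND was SARS1, the seryl-tRNA synthetase (0.981), followed by MAPK6 (0.963) and KCTD15 (0.962). FOS lay closest to FOXO3B (0.970), SERPINI1 (0.952) and AARSD1 (0.951), and IER3 to AQP3 (0.958), VCAN (0.956) and DUSP8 (0.947). FOSL2 was nearest to GRHL2 (0.929) and JUNB to FOXP2 (0.885). Within the family, EGR1 had r = 0.90 with JUND, FOS r = 0.92 with IER3, and FOSL2 r between -0.39 and 0.23 with every other member.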

How the data were processed

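RNA-Seq was run on 48 libraries in 16 groups of 3 biological replicates. Per the labels, the authors' processing notes name FastQC, cutadapt 2.8, STAR 2.7.2b, featureCounts (Subread 2.0.3) and the builds GRCh38.p13 and GRCm39. The annotation release is not given in the sources used here. The values deposited by the authors are estimated counts per gene, not normalized (81.6% of nonzero values whole), and were rounded here.

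Genes were filtered with filterByExpr (minimum count 10, minimum total 15), scaled by TMM and fitted in 1 model with a mean per group (edgeR 4.0.16, R 4.3.3, robust quasi-likelihood test, 32 residual degrees of freedom, 22 comparisons). Benjamini-Hochberg adjustment was over all 20009 genes tested of 61817. The procedure was tested on data simulated for a single comparison, with the same spread for every gene. That test does not cover libraries that stand apart from their replicates. CPM are TMM-scaled. DESeq2 1.42.0, other scalings, no filter, smaller fits, a replicate block and leaving out each library were alternatives. p-values measure the spread between the replicates as labelled.

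The 10 genes and the other lists were chosen with earlier results of these data known. All 10 are named, and from each other list up to 3 called genes with the largest change per comparison, plus the 3 genes of at least 5 CPM most like each member with a call. Promoters came from RefSeq, gene positions from GENCODE v29. Values of some marker genes are not reported here.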

Additional observations from a re-analysis of the deposited data

Results flagged for a closer look

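In 7 cases the effect of SNX631 or of CSS on a member differed between lines by an interaction term of edgeR's quasi-likelihood test (adjusted p under 0.01 and a difference over 1.5-fold). With SNX631, dKO-8 minus dKO-8M gave a difference of log2 changes of -0.98 for JUN (changes of -0.88 and 0.10) and -1.23 for EGR1 (-1.57 and -0.35). dKO-19 minus dKO-8 gave 0.62 for JUN (-0.26 in dKO-19 and -0.88 in dKO-8). For CSS against FBS with vehicle, Rv1-Luc minus Rv1-WT gave -1.05 for FOS (-0.01 in Rv1-Luc and 1.04 in Rv1-WT), -0.69 for JUN (0.30 and 1.00), -0.73 for EGR1 (0.76 and 1.49) and -1.0 for IER3 (0.13 and 1.13). The contrasts share libraries, since dKO-8 enters both of the SNX631 differences.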

How the results depend on the processing

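Of 198 tests of a member in a comparison, 38 were called. Of these, 37 were still called under each of 6 other settings (RLE scaling, library size only, DESeq2, no filter, a replicate block, and a fit to the compared libraries alone), and 28 also without any 1 library. None changed direction. Under library size only, JUNB in dKO-19M was lost (-0.57) and JUND with CSS in Rv1-WT was gained (0.64).

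With an adjusted p under 0.05 and no fold limit, the number of members passing was 5 with SNX631 in Rv1-WT in FBS, 5 in CSS, 6 for Rv1-Luc in FBS and 4 in dKO-19. It was 8 with CSS in Rv1-WT with vehicle, 8 with SNX631, 5 in Rv1-Luc with vehicle and 1 with SNX631, and 7 for dKO-8M against dKO-8 and 5 for Rv1-Luc against Rv1-WT. For differences of effects it was 1 for the media in Rv1-Luc, 2 for dKO-19 minus dKO-19M and 2 for dKO-19 minus dKO-8. Leaving out 1 library gave 1 to 3 members with SNX631 in Rv1-Luc in CSS, 0 to 1 with CSS in Rv1-Luc with vehicle, 1 to 2 for dKO-8 minus dKO-8M and 0 to 1 for dKO-19 minus dKO-8.

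Replicate numbers did not pair the libraries: the correlation of deviations was over 0.1 for every pair in 0 of 15 comparisons (range -0.09 to 0.16), 15 of 45 pairs were best with their own number, and the replicate block changed no count of called members. At 8 to 38 reads a library for FOSB and at most 6 for FOSL1, depth limits both.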

Other observations

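In Rv1-Luc against Rv1-WT (FBS, vehicle), 7 of 26 other immediate-early genes were called lower and none higher (median log2 change -0.38, all genes -0.02, against 17.8% of all genes called in either direction). CCN2, which encodes a matrix protein, was at 0.714 against 8.31 CPM (log2 change -3.51), and KLF4, a transcription factor gene, had a log2 change of -1.31. Among the AP-1 targets CD44, an adhesion receptor gene, was at 12.6 against 99.4 CPM (-2.97). Of 12 ERK feedback genes 3 were called lower (DUSP6 -1.44, ETV4 -1.21 and ETV5 -0.87). KLF4 was called in opposite directions in the kinase-inactive lines, with a log2 change of -0.71 in dKO-8M against dKO-8 and 1.61 in dKO-19M against dKO-19.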
